A study of Mus musculus with 6 samples.

Results

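The cells described here are barcodes of Cd11b-enriched mouse brain that carried transcripts of Ms4a7, Spp1, Fabp5, Il1rn or Clec4e and few transcripts of resident microglia. They were chosen by a gate on UMI counts (a UMI, or unique molecular identifier, marks 1 captured transcript). A barcode had to show at least 400 genes and under 10% mitochondrial UMIs. It needed at least 3 UMIs over the myeloid genes Tyrobp, Fcer1g and Lyz2, and at least 3 over the 5 entry genes Ms4a7, Spp1, Fabp5, Il1rn and Clec4e. At most 1 UMI was allowed over the microglia genes P2ry12, Tmem119, Siglech, Sall1 and Gpr34, and at most 2 over Mrc1, Pf4 and Cbr2, genes of macrophages at the brain's borders. The MHC class II genes H2-Aa, H2-Ab1, H2-Eb1 and Cd74 had to stay under 1% of UMIs, and S100a8 plus S100a9 under 0.3%. Of 6000 deposited barcodes, 2083 were within the quality limits and 184 were within the whole gate. Of these, 181 came from a single library, so the gate could not be compared between replicates, and values within it are descriptions.

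The 6 Drop-seq libraries hold 1000 barcodes each and come from female C57BL/6 mice aged 2 to 3 months. Naive 1 and naive 2 are wild type brains without tumour, and metastasis 1 and metastasis 2 are brains of unmodified mice that had received E0771 mouse mammary carcinoma cells into the heart 2 to 3 weeks earlier, 1 brain per library. The other libraries are metastasis-bearing Cx3cr1+/- and Cx3cr1-/- mice, each from 2 pooled brains. After perfusion with PBS the brains were digested with papain, spun through Percoll and enriched for Cd11b on magnetic columns, so cells without Cd11b were depleted in every library. Groups follow the sample labels. For the 4 libraries of unmodified mice the tables' own names say the reverse, naive for metastasis and metastasis for naive. If those names were right, the library called metastasis 1 would be a naive brain.

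Macrophages that enter the brain from blood monocytes differ from resident microglia, which settle in the embryo and keep a transcription programme built around P2ry12, Tmem119 and Sall1. Entering cells often carry Ms4a7, a membrane protein of the Ms4a family, and in tumours and injured tissue a group of them makes Spp1 (osteopontin, a secreted matrix phosphoprotein that binds integrins and CD44) together with the fatty acid carrier Fabp5. Il1rn encodes the antagonist of the interleukin-1 receptor, Clec4e the lectin receptor Mincle, which recognises glycolipids and dying cells, and Wfdc17 a small secreted protein of the whey acidic protein family. On mm10, Ms4a7 lies at chr19:11321039-11336146 (minus strand), Spp1 at chr5:104435118-104441050 (plus), Fabp5 at chr3:10012548-10016607 (plus), Il1rn at chr2:24336853-24351494 (plus), Clec4e at chr6:123281789-123289870 (minus) and Wfdc17 at chr11:83703991-83706268 (plus). These spans cover the whole annotated gene, and Drop-seq counts its 3′ end.

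Gated barcodes were nearly confined to metastasis 1, the library with the most UMIs in all. They made up 181 of its 990 quality barcodes, or 18.3% (95% Clopper-Pearson interval 15.9 to 20.8%). Metastasis 2 held 0 of 81, which allows a share of up to 3.70% when the limit is set at 3 counts of the total (Clopper-Pearson upper bound 4.45%). Naive 1 held 0 of 420, which allows up to 0.714% by the same limit (upper bound 0.874%). Naive 2 held 2 of 181 (1.10%, 0.134 to 3.93%), the Cx3cr1+/- library 0 of 251 (limit 1.20%, upper bound 1.46%) and the Cx3cr1-/- library 1 of 160 (0.625%, 0.0158 to 3.43%). Metastasis 2 and naive 1 were thus both at 0, and the groups overlapped. The mean share was 9.14% in metastasis and 0.552% in naive brains (n = 2 libraries each), 8.59 points apart. The exact permutation test (two-sided) gave p = 1, and the smallest p it can give here is 0.33. Replicates 1 and 2 were sequenced on different instruments. Metastasis minus naive was 18.3 points within replicate 1 and -1.10 within replicate 2. Without metastasis 1 the difference was -0.552 points. The intervals cover counting error only.

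**Figure D1:**
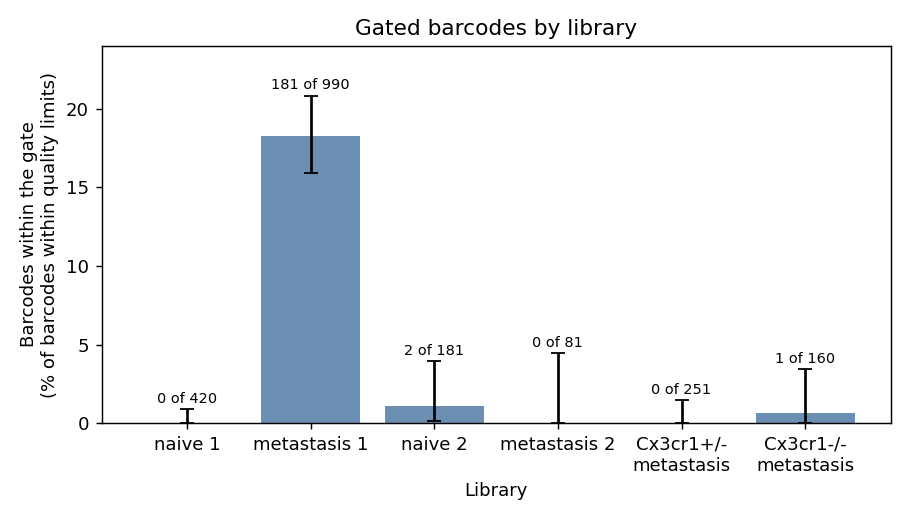
Share of quality barcodes within the gate (%, y axis) in each library (x axis), with 95% Clopper-Pearson intervals as bars and the counts above them. Metastasis 1 stands at 18.3%, and the highest of the other 5 libraries, naive 2, stands at 1.10%.

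Depth and mitochondrial content differed between libraries along with this share. Total UMIs ranged from 491621 in metastasis 2 to 2667099 in metastasis 1. Over all deposited barcodes the median share of mitochondrial UMIs was 2.96% in metastasis 1 and 3.60% in metastasis 2, and between 8.64% and 20.3% in the other 4. Per quality barcode the order was another one. The median was 1706 UMIs in metastasis 1, 1060 in metastasis 2, 1336.5 in naive 1, 2977 in naive 2, 3902 in the Cx3cr1+/- library and 3282 in the Cx3cr1-/- library, so 3 libraries with 0 to 2 gated barcodes were deeper per barcode than metastasis 1. Quality barcodes with at least 800 UMIs were also thinned to 800 and gated again, which left out 24 of 81 barcodes of metastasis 2, 82 of 420 of naive 1 and 1 to 9 in each of the others. Then 101 of 989 barcodes of metastasis 1 passed (10.2%), with 1 of 338 in naive 1, 1 of 154 in the Cx3cr1-/- library, and 0 of 57 in metastasis 2, 0 of 172 in naive 2 and 0 of 243 in the Cx3cr1+/- library. No gated barcode was shared between libraries.

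Among the entry genes Clec4e was found in the most gated barcodes of metastasis 1 and Il1rn in the fewest. Since the gate used them, their levels are given as a description, in CPM (a gene's UMIs per 1000000 UMIs of the barcode). Clec4e had a UMI in 144 of 181 barcodes, with a median of 690 CPM and a highest value of 5789. Fabp5 had one in 104, with a median of 366 and a highest value of 5253. Ms4a7 was seen in 93 barcodes, at a median of 90.6 and up to 5841 CPM. Spp1 and Il1rn were at 0 in most barcodes. Spp1 was found in 90, and its highest value of 42074.5 CPM lay far above the next, 9381. Il1rn was found in 68, with a highest value of 3915. Wfdc17, which the gate did not use, had a UMI in 105 of 181, with a median of 426 and up to 8360 CPM.

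Spp1 was thus the least evenly spread of these genes. A single barcode held 245 of the 487 Spp1 UMIs of all gated barcodes (50.3%), while no barcode held more than 6.51% of the Ms4a7, Fabp5 or Clec4e UMIs. Few barcodes carried the whole set: 10 had a UMI of 1 entry gene, 60 of 2, 81 of 3, 24 of 4 and 6 of all 5. Ms4a7 and Spp1 were both present in 39 barcodes. Across the 181 barcodes of this library the Pearson correlation of Ms4a7 with Spp1 (log2 of CPM plus 100) was -0.10, and -0.06 after thinning. Barcodes were also admitted on the sum of the 5 entry genes, which can by itself lower a correlation between entry genes. At these counts a correlation of that size shows neither that both genes go together nor that they exclude each other.

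To set these shares against background, each barcode was thinned to 800 UMIs and compared with 62 barcodes of the same library that had at most 1 UMI of Tyrobp, Fcer1g and Lyz2, called low-myeloid barcodes here. Apart from the quality limits, no other limit of the gate applied to them. The comparison was chosen after the data had been seen. Gated barcodes were required to carry the entry genes, so their higher shares of these 5 are built in and are a description. Wfdc17 was not used by the gate. The sets were still split on myeloid UMIs, at least 3 against at most 1, so its difference is a description too. The median depth was 1801 UMIs in gated and 1451 in low-myeloid barcodes. Ms4a7 was detected in 34.3% of gated barcodes (27.4 to 41.7%) and in 3.23% of low-myeloid ones (0.393 to 11.2%). Fabp5 was detected in 35.9% against 11.3%, Clec4e in 47.5% against 14.5% and Spp1 in 26.0% against 9.68%. Il1rn was detected in 18.8% against 9.68%. Wfdc17 was detected in 40.3% (33.1 to 47.9%) against 14.5% (6.86 to 25.8%). Without thinning the Wfdc17 shares were 58.0% and 25.8%, and those of Ms4a7 51.4% and 12.9%. Transcripts of other macrophage genes were common in the low-myeloid barcodes too, with Apoe in 74.2% and Il1b in 64.5% of them after thinning. Over 2875 genes with at least 50 UMIs in both sets together, 201 were 2-fold or more higher in gated than in low-myeloid barcodes (6.99%) and 48 were lower (1.67%). From the mean of the barcodes' own CPM, 195 (6.78%) were higher and 104 (3.62%) lower.

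**Figure D2:**
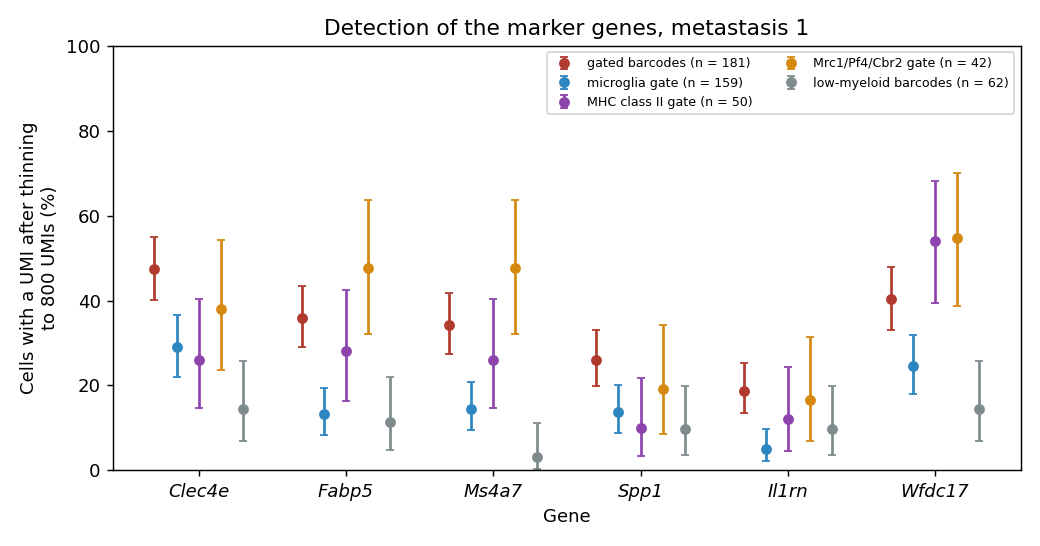
Share of barcodes with at least 1 UMI after thinning to 800 UMIs (%, y axis) for the 5 entry genes and Wfdc17 (x axis) in 5 sets of barcodes of metastasis 1, with 95% Clopper-Pearson intervals. Gated barcodes stand above microglia and low-myeloid barcodes at all 6 genes, which the gate built in for the 5 entry genes, and below the barcodes rich in Mrc1, Pf4 and Cbr2 for Fabp5, Ms4a7 and Wfdc17. Gated and low-myeloid barcodes were also split on myeloid UMIs, so the Wfdc17 difference between them is a description too.

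The general macrophage programme was uneven among the gated barcodes. It was read from 12 genes that the gate did not use, among them the surface receptors Csf1r, Cd14, Itgam and Mertk, the lysosomal protein Cd68 and the protease Ctss. Their summed level per gated barcode ran from 0 to 32018 CPM with a median of 8727. The mean was 9924 CPM, of which Ctss alone gave 4645, and in the low-myeloid barcodes 6590, of which Ctss gave 2700. The median was 11624 in 159 microglia of the same library (at least 3 UMIs of the microglia genes), 10611 in 50 barcodes with at least 1% MHC class II UMIs, and 6659 in the low-myeloid barcodes. Of the 181 gated barcodes, 106 were at or below the upper quartile of the low-myeloid barcodes (9687 CPM) and 56 at or below their median. The gate therefore holds barcodes with a clear macrophage programme and others in which these genes were no higher than in barcodes nearly free of Tyrobp, Fcer1g and Lyz2. For that reason they are called gated barcodes here and not infiltrating macrophages.

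Transcripts of a carcinoma gene list were found in most gated barcodes. Of 15 genes listed for carcinoma cells, 12 are in the table, and Krt18 and Cldn4 were at 0. The homeobox gene Rhox5 had the highest summed level of the list, with a UMI in 86 of 181 gated barcodes and 534 CPM against 410 in microglia and 818 in low-myeloid barcodes. The keratin gene Krt8 was found in 27. The summed level of the list ran from 0 to 6552 CPM per gated barcode (median 1177), from 0 to 4056 in microglia (median 783), from 0 to 2890 in MHC class II high barcodes (median 816) and from 0 to 4317 in low-myeloid barcodes (median 1697). In 25 gated barcodes no carcinoma gene had a UMI. Part of the list, such as the protease gene Mmp14 with a UMI in 110 gated barcodes, is also made by macrophages. What share of these transcripts came from free RNA, doublets or tumour cells was not tested.

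The deepest barcodes stood apart. Gated barcodes held 522407 UMIs in all, with a median of 1801 and a range of 1035 to 37048. The 8 with 10000 UMIs or more held 29.2% of all UMIs. Their median was 3.16 entry UMIs per 10000, against 25.6 in the other 173, and their macrophage genes had a median of 1100 CPM against 8809. The median of the carcinoma list was 2697 CPM in the 8 and 1144 in the rest. Sums over barcodes lean on these 8, so the mean of the barcodes' own CPM, called the mean level below, is given beside ratios of sums for part of the genes. Log2 ratios below are of sums unless stated.

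Lists of other cell types were low or rested on shared genes. The mean level of the NK and T cell list was 657 CPM, of which Ccl5, a chemokine gene that macrophages also express, gave 424, and Cd3e, Cd3g, Trac and Cd8a were at 0. The neutrophil list stood at 319 CPM with Cxcr2 and Ltf at 0, the B cell list at 31.9 CPM, the endothelial and mural list at 197 and the list of astrocytes, oligodendrocytes and neurons at 157. The dendritic cell list, at 4138 CPM, was nearly all Cst3 (3793 CPM), which microglia express. The choroid plexus list averaged 276 CPM, with 14931 in its highest barcode. In MHC class II high barcodes the same list averaged 165 CPM, the NK and T cell list 901 and the neutrophil list 688. Their part in the results below was not tested.

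Compared with microglia of the same library, gated barcodes had more transcripts of monocyte genes and fewer of the microglia programme, also for genes outside the gate. Over 3978 genes with at least 50 UMIs in both sets together, 60 were 2-fold or more higher in gated barcodes (1.51%) and 142 were 2-fold or more lower (3.57%), with a median log2 ratio of 0.07. From mean levels the counts were 138 (3.47%) and 156 (3.92%). Without the 8 deepest barcodes 60 genes were higher and 80 lower, of which 18 and 63 were among those counted with them. The gate chose both sets by expression and there is 1 library, so no test was made, and intervals cover counting error only.

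Genes of monocytes and cells newly derived from them were all on the higher side against microglia. All 23 measured genes of that list had a ratio above 0, with a median log2 ratio of 0.52, and 3 were 2-fold or more higher, Chi3l3, Ly6c2 and Ifitm6. Ly6c2, the antigen of inflammatory monocytes, was found in 55 of 181 gated barcodes and 21 of 159 microglia, and its log2 ratio was 1.27. Chi3l3, also called Chil3 or Ym1, a chitinase-like protein secreted by monocytes and alternatively activated macrophages, had a log2 ratio of 1.31 (0.90 to 1.74), and its mean level was 443 CPM against 123. The interferon-induced membrane protein Ifitm3 had a ratio of 0.70, and Plac8, a small monocyte protein, of 0.52. Ccr2, the receptor that brings monocytes out of the bone marrow, was at 0.41, and its mean level of 290 CPM was close to that of microglia at 214 and of low-myeloid barcodes at 212. The most abundant member, the calcium-binding S100a6, had a ratio of 0.49, but a higher summed level in low-myeloid barcodes (12681 CPM) than in gated ones (9119). The summed level of the whole list was 25124 CPM in gated and 25492 in low-myeloid barcodes. Its mean level was 23103 CPM in gated, 15386 in microglia, 20664 in low-myeloid and 23747 in MHC class II high barcodes. Of 21 genes measured against low-myeloid barcodes, 16 had a ratio above 0 and 5 below.

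The other Ms4a genes followed Ms4a7 in the comparison with microglia. The Ms4a list outside the gate averaged 1522 CPM in gated barcodes, 833 in microglia and 1428 in MHC class II high barcodes. In barcodes rich in Mrc1, Pf4 and Cbr2 it averaged 1994 CPM. All 4 measured outside the gate were higher than in microglia, with a median log2 ratio of 0.70. Ms4a6c, the most abundant, was found in 110 gated barcodes at a mean level of 676 CPM against 402 in microglia. Ms4a4c stood at 343 against 158 CPM and Ms4a6d at 269 against 115. Low-myeloid barcodes had 219, 112 and 106 CPM of the same genes. Of the whey acidic protein genes, Wfdc17 had a log2 ratio of 0.89 (0.65 to 1.14), with a mean level of 932 CPM against 398. Slpi, which encodes a secreted inhibitor of leukocyte proteases, had a ratio of 1.06, with 206 CPM against 67.8. The acute-phase gene Saa3 had a ratio of 1.75 (1.20 to 2.34), but was found in only 22 gated barcodes. Of its 124 UMIs, 59 lay in a single one, and without the barcode of most Spp1 UMIs its ratio was 0.84.

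C-type lectin and scavenger receptor genes were mostly on the higher side. Of 14 measured genes of that list, 12 had a ratio above 0, with a median of 0.34, and 1 was 2-fold or more higher. That gene was Pirb, an inhibitory immunoglobulin-like receptor, at 1.03. Clec4n, which encodes the fungal sensor Dectin-2, had a ratio of 0.90, Clec4a3 of 0.67 and Clec4a2 of 0.51. The Fc receptor Fcgr3 was on the other side at -0.73. Complement and Fc receptor genes had a median of -0.64 over 12 measured genes, of which C1qc, a chain of the complement starter C1q, was the only one 2-fold or more lower, at -1.01. Genes of these families are close in sequence, and how the authors' counting split shared reads is not given in the sources used here.

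Most measured genes of lipid handling were on the higher side. Of 19 measured genes, 14 had a ratio above 0, with a median of 0.35, and 2 were 2-fold or more lower. Apoe, the main lipid carrier of brain macrophages, was in 177 of 181 gated barcodes. Its mean level was 5584 CPM against 2974 in microglia and 2228 in low-myeloid barcodes, and its log2 ratio was 0.68 (0.58 to 0.77). Apoc2, the activator of lipoprotein lipase, had a ratio of 0.95 and Pla2g7, which breaks down oxidised phospholipids, of 0.60. The 2 lower genes were Lpcat2, a lysophospholipid acyltransferase, at -1.30 and the lysosomal phospholipase Pla2g15 at -1.07. The lipid-associated macrophage programme as a list was not shifted, with 9 of 19 measured genes above 0, a median of -0.08 and 2 genes 2-fold or more lower. Its receptor Trem2 was at -1.14 and the growth factor Csf1 at -1.42. Gpnmb, a glycoprotein of lipid-laden macrophages, was found in 49 gated barcodes and had a log2 ratio of -0.26 from sums and 0.33 from mean levels, so its direction was not settled.

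Interleukin-1 genes went in both directions. Il1b was in 175 of 181 gated barcodes, with a mean level of 4853 CPM against 2985 in microglia and 1808 in low-myeloid barcodes, and a log2 ratio of 0.48 (0.38 to 0.58). Il1r2, the decoy receptor, was at 1.19 and the co-receptor gene Il1rap at 1.10. Il1a was at -1.71, with a mean level of 211 CPM against 552 in microglia and 215 in low-myeloid barcodes. The inflammasome gene Nlrp3 was at -0.71. Over the 8 measured genes of this list the median was -0.06.

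Chemokines of microglia were lower and a neutrophil chemokine was higher. Ccl3 had a mean level of 1684 CPM in gated barcodes, 5229 in microglia and 1553 in low-myeloid barcodes. Ccl4 stood at 2944, 8480 and 2907 CPM in the same order and Ccl12 at 251, 996 and 294.5. Their log2 ratios to microglia were -1.79, -1.66 and -1.94. All 3 were thus at about the level of the low-myeloid barcodes. Cxcl2, which draws neutrophils, was higher than in both, at 2392, 1225 and 1001 CPM, with a log2 ratio of 0.74. Cxcl10 had 368 CPM against 374 in microglia, and Cxcl9 was at 0 in all 181 gated barcodes. Over 12 measured chemokines the median was 0.05, and 3 were 2-fold or more lower. The medians of the chemokine, interleukin-1 and lipid-associated lists, all near 0, changed sign under some of the alternatives.

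The immediate early genes Jun, Atf3 and Egr1 were lower than in microglia, and the list of inflammatory cytokines and NF-kB targets was close to 0 without the deepest barcodes. Of 16 measured inflammatory cytokines and NF-kB targets, 4 had a ratio above 0, with a median of -0.38. The median was -0.05 without the 8 deepest barcodes and -0.06 with at least 5 entry UMIs. Tnf was at -0.97 and the adhesion molecule Icam1 at -1.10, and the prostaglandin synthase Ptgs2 was at 1.10. Of 29 measured myeloid transcription factors, 6 had a ratio above 0 and 6 were 2-fold or more lower, with a median of -0.49. Jun was at -1.59, Atf3 at -1.82 and Egr1 at -1.93. Their mean levels in gated barcodes (1705, 1312 and 1146 CPM) lay below those of low-myeloid barcodes (2485, 1929 and 1698). The lineage factor Spi1 was at -0.17, with a mean level of 301 CPM against 288 in microglia.

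Resident microglia genes outside the gate were all lower by ratios of sums. None of 17 measured genes had a ratio above 0, the median was -1.27, and 10 were 2-fold or more lower. From mean levels 1 was above 0, the median was -1.09 and 11 were 2-fold or more lower. Cst3, the protease inhibitor cystatin C, had a mean level of 3793 CPM in gated barcodes, 9252 in microglia and 3680 in low-myeloid barcodes. Cx3cr1, the fractalkine receptor, stood at 383, 865 and 560 CPM in the same order. The tetraspanin Cd81 was at -2.12 and the leukotriene synthase Ltc4s at -2.13, the lowest of the list. These transcripts were thus not absent from gated barcodes. By mean level Cst3 and Cd81 (119 against 118 CPM) stood near the low-myeloid barcodes, and Cx3cr1 and Ltc4s (55.8 against 131.8 CPM) below them. The list as a whole averaged 7880 CPM in gated barcodes and 8761 in low-myeloid ones. Low-myeloid barcodes had up to 5 UMIs of the gate's microglia genes, where gated ones were held to at most 1. Levels below those of low-myeloid barcodes are therefore a description.

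Interferon, metabolic and suppressive genes gave smaller differences. Of 22 measured type I interferon genes, 16 had a ratio above 0, with a median of 0.31 and none past 2-fold. Bst2, or tetherin, was at 0.81, the ubiquitin-like modifier Isg15 at 0.53 and the transcription factor Irf7 at 0.36. Of 19 measured genes of glycolysis and hypoxia, 17 had a ratio above 0, with a median of 0.48, and the glucose transporter Slc2a1 (1.13) and the oxidoreductase Ero1l (1.07) were past 2-fold. Against low-myeloid barcodes, the lactate dehydrogenase gene Ldha had a mean level of 521 against 518 CPM and the kinase gene Pgk1 of 76.4 against 124. Arg1, the arginase of alternatively activated macrophages, was found in 7 of 181 gated barcodes, and 13 of its 19 UMIs lay in 1 of them. Nos2, the inducible nitric oxide synthase, was at 0 in all. The inhibitory receptor genes Lilrb4 and Gp49a (now Lilr4b) were each found in 122 gated barcodes, with log2 ratios of 0.48 and 0.44. They are near-identical neighbours, so their values may share reads.

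The 15 most abundant genes, mitochondrial and ribosomal ones aside, were led by the ferritin heavy chain Fth1 at 12973 CPM, S100a6 at 9119 and the long non-coding RNA Malat1 at 7316 (summed levels). B2m, Actb, Hsp90ab1, Apoe, Tmsb4x, Il1b, Ctss, Eef1a1, Vim, Pabpc1 and Cst3 were also among them. Among the 15 genes with the largest ratios over microglia, several rested on few barcodes. Igfbp7 had the largest log2 ratio, 3.63, but 50 of its 52 UMIs lay in 1 barcode, and without the 8 deepest barcodes its ratio was -0.57. Areg, which encodes the growth factor amphiregulin, had 47 UMIs in 22 barcodes and a ratio of 2.48 (1.39 to 3.78). Nr4a2, a nuclear receptor of the immediate early response, was found in 28 barcodes at 1.38, and Alcam, an adhesion molecule, in 29 at 1.33. The rest were Gnl1, 2610305D13Rik, Cep55, Gpr137b, Pdlim1, Lrp10, Sqle, Arhgap18 and Stra13, between 1.29 and 1.66. Outside the gate's own genes the lowest ratio was that of Hpgd, which breaks down prostaglandins, at -3.62 with 4 UMIs in gated barcodes. Ptgs1, which starts prostaglandin synthesis, was at -2.34. Ppp1r9a, Adamts1, Pdgfb, Pmp22 and Gem lay between -2.82 and -2.11.

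**Figure D3:**
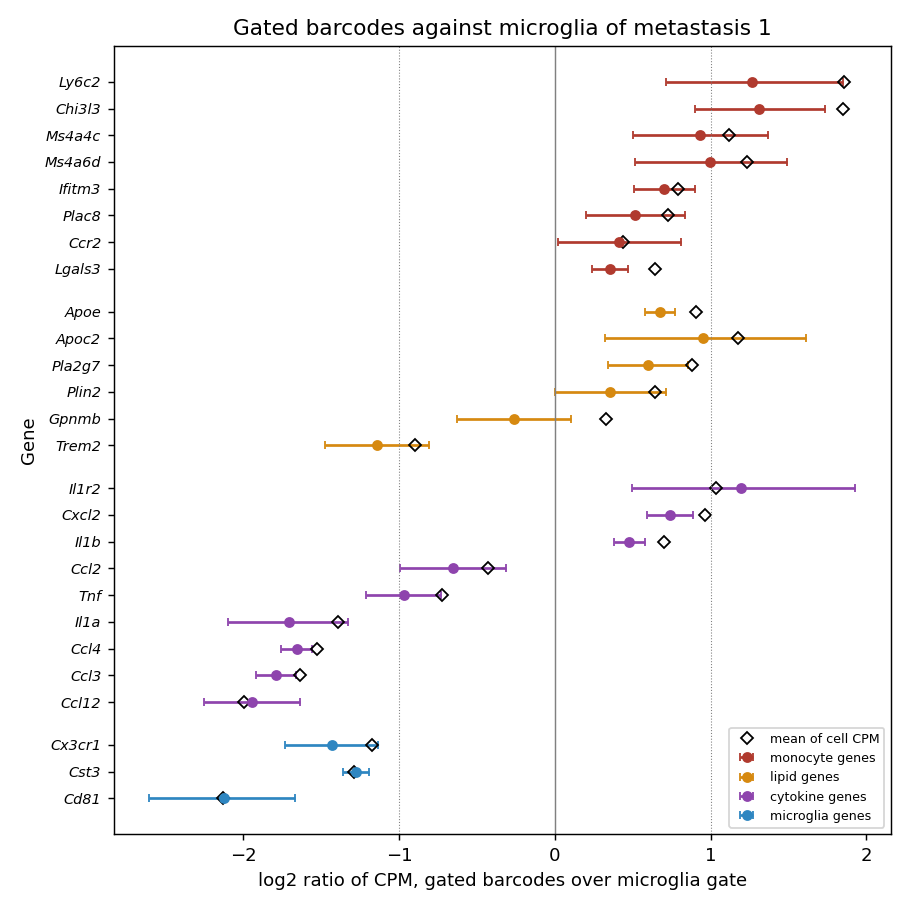
Log2 ratio of CPM in gated barcodes over microglia of metastasis 1 (x axis) for 26 genes (y axis). Filled points with bars are ratios of summed UMIs with 95% intervals of counting error, open diamonds are ratios of mean levels, and dotted lines mark 2-fold. Monocyte genes lie right of 0 and the 3 microglia genes lie left of -1.

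Against the 50 MHC class II high barcodes of the same library, gated barcodes had less of the antigen-loading genes and more of Chi3l3, Slpi and Saa3. The MHC class II high barcodes had no limit on Mrc1, Pf4 and Cbr2 and held up to 14 UMIs of them, against at most 2 in gated ones. What this adds to the differences below was not tested. Of 2693 genes, 268 were 2-fold or more higher in gated barcodes (9.95%) and 81 lower (3.01%), with a median log2 ratio of 0.13. Centred on that median, the counts were 211 and 123. Without the 8 deepest barcodes they were 87 and 29, and from mean levels 203 (7.54%) and 45 (1.67%). The largest ratios were those of the collagen chaperone Serpinh1 at 4.48 (1.97 to 9.80), Krt8 at 3.95 (1.42 to 9.27), Cdca3 at 3.81 (1.27 to 9.13) and Plin3 at 3.71 (1.17 to 9.03), each with 1 UMI in the MHC class II high barcodes. When every barcode was thinned to 800 UMIs, Serpinh1 was at 0.95 and Krt8 at -0.12. Of the 6 measured carcinoma genes, 5 were 2-fold or more higher, with a median of 1.65. From mean levels 3 were 2-fold or more higher, with a median of 1.03. The entry genes, which the gate used, had mean levels of 640 CPM Ms4a7 in gated and 459 in MHC class II high barcodes, 612 and 619 Fabp5, 296 and 217 Il1rn, 932 and 569 Clec4e and 791 and 144 Spp1. Wfdc17, outside the gate, stood at 932 and 1007 CPM, with a log2 ratio of -0.35. The antigen-loading genes H2-DMa (-3.03) and H2-DMb1 (-2.91) were lower in gated barcodes. The gate did not use them, but both sets were split on related MHC class II genes, so this difference is a description. Also lower were Ifitm1 (-3.73), the decoy receptor Il1r2 (-2.15) and the survival gene Bcl2a1a (-1.95). The monocyte list had a median of -0.18 with 7 of 22 genes above 0, and Ccr2 was at -1.22. The Ms4a list had 0 of 4 genes above 0, with a median of -0.50. C-type lectin and scavenger receptors had 2 of 13 (-0.64), type I interferon genes 2 of 16 (-0.35) and lipid handling 7 of 17 (-0.10). From mean levels these medians were -0.05 (Ms4a), -0.29 (lectin), -0.01 (interferon) and 0.08 (lipid handling). Chi3l3 was at 1.93, Slpi at 1.91 and Saa3 at 1.71, and these genes were also more than 2-fold higher than in microglia. For Saa3, 59 of 124 UMIs lay in the barcode of most Spp1 UMIs. Without that barcode Saa3 was less than 2-fold higher than in microglia. Its ratio to MHC class II high barcodes without that barcode is not given here. The 42 barcodes rich in Mrc1, Pf4 and Cbr2 had about the same mean levels of Chi3l3 (437 CPM against 443 in gated barcodes) and Saa3 (216 against 213), and 58.7 CPM Slpi against 206.

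Barcodes lay close on both sides of most limits of the gate. The 52 gated barcodes with exactly 3 entry UMIs had a mean level of 578 CPM Wfdc17 and 3738 CPM Apoe. The 90 barcodes that failed only this limit, with 2 entry UMIs, had 423 and 3124 CPM. At the microglia limit, 65 gated barcodes had 1 UMI and 42 others, which failed only there, had 2. Their Wfdc17 was 850 and 749 CPM. At the MHC class II limit the highest gated barcode had 0.99% and the lowest of the 24 outside it 1.03%. Only 2 barcodes failed solely through S100a8 and S100a9, with at least 0.471%, where the highest gated one had 0.237%.

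The limit on Mrc1, Pf4 and Cbr2 removed barcodes with higher mean levels of Ms4a7, Fabp5 and Wfdc17 than those it kept. The 35 barcodes that failed only there had a median of 13 entry UMIs, against 4 in the gate, at a median depth of 2856 against 1801 UMIs. Their mean level of Ms4a7 was 1955 CPM against 640 in gated barcodes, of Fabp5 1603 against 612, of Wfdc17 2478 against 932 and of Apoe 12329 against 5584. Spp1, at 756 against 791 CPM, and Clec4e, at 802 against 932, did not follow. Rhox5 was lower there, at 202 against 361 CPM. Just inside the limit, the 13 gated barcodes with 2 UMIs had 755 CPM Ms4a7 and 1697 CPM Wfdc17, and the 7 just outside, with 3 UMIs, had 1127 and 3149. Without this limit metastasis 1 would hold 216 gated barcodes, or 21.8%. Lyve1 and Cd163, further genes of border macrophages, had 3 UMIs each in all gated barcodes.

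The gated barcodes were then ordered by the share of entry UMIs and cut into 4 bins of 46, 45, 45 and 45. Entry UMIs per 10000 ran from 0.81 to 19.4 in the lowest bin and from 37.6 to 441 in the highest. Median depth was 2353.5, 1631, 1567 and 1900 UMIs over the bins, and the 8 deepest barcodes all fell in the lowest. Since the entry genes drew the line and the barcodes are cells of 1 library, the bins are a description. Over 1462 genes, 173 were 2-fold or more higher in the highest bin than in the lowest (11.8%) and 277 lower (18.9%). These counts are from summed UMIs, and the 257361 UMIs of the lowest bin include those of the 8 deepest barcodes. Counts from mean levels or without these 8 are not given here.

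Macrophage genes outside the gate went up with the entry share. The 12 macrophage genes averaged 6900, 8070, 10457 and 14337 CPM from the lowest to the highest bin. The number of barcodes above the upper quartile of low-myeloid ones was 9 of 46, 11 of 45, 19 of 45 and 36 of 45. Of the sum of the 12 genes, Ctss alone gave 2998 CPM in the lowest bin and 7140 in the highest. Cd68 gave 247 and 829, and the high-affinity Fc receptor Fcgr1 124 and 428. Lipid handling genes averaged 6832 and 14853 CPM, interleukin-1 genes 4250 and 9053 and type I interferon genes 4781 and 8338. The list of class II antigen presentation outside the gate averaged 3142 and 7371 CPM, but Ctss is a member and gave nearly all of it. The class II genes of the gate itself did not follow, with 451 and 382 CPM Cd74 and 907 and 708 CPM H2-Ab1. Wfdc17 went from 596 to 1534 CPM, Apoe from 3123 to 8023, Il1b from 3368 to 7065 and Chi3l3 from 169 to 906.

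Carcinoma and cell cycle genes went the other way. The carcinoma list averaged 1584, 1460, 1302 and 1027 CPM over the bins and the cell cycle list 2629, 2557, 2234 and 1580. Rhox5 went from 465 to 224 CPM. Resident microglia genes outside the gate changed less, from 6784 to 8290 CPM, and S100a6 went from 8635 to 5031. The monocyte list was nearly level, at 23155 CPM in the lowest bin and 23861 in the highest.

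**Figure D4:**
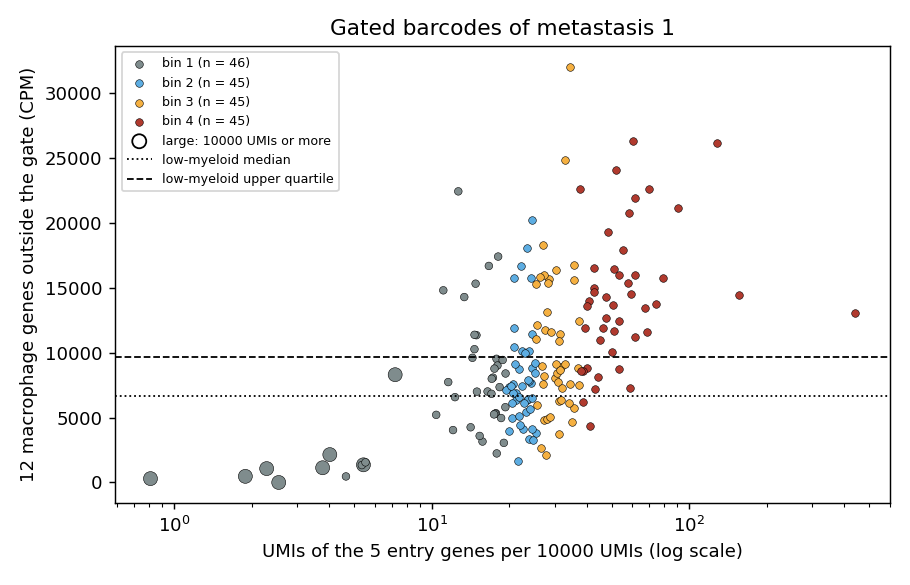
Summed CPM of 12 macrophage genes outside the gate (y axis) against entry-gene UMIs per 10000 (x axis, log scale) for the 181 gated barcodes of metastasis 1, coloured by bin, with the 8 barcodes of 10000 UMIs or more drawn large. Lines mark the median (6659 CPM) and upper quartile (9687 CPM) of the low-myeloid barcodes, and 36 of the 45 barcodes of the highest bin lie above the upper line.

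**Figure D5:**
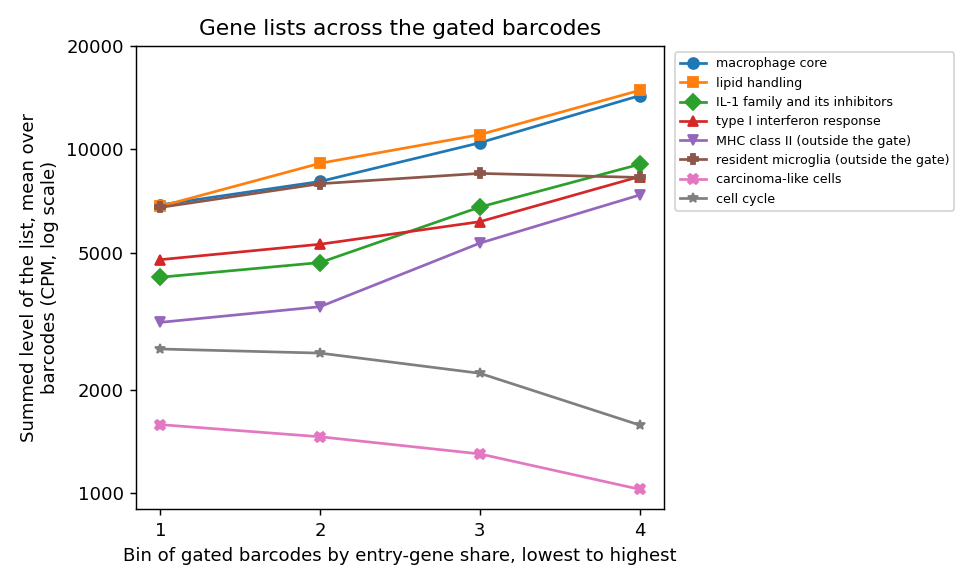
Summed level of 8 gene lists (mean CPM over barcodes, log scale, y axis) in the bins of gated barcodes by entry share (x axis). The macrophage, lipid, interleukin-1, interferon and MHC class II lists, the last of them mostly Ctss, are highest in bin 4, and the carcinoma and cell cycle lists are lowest there.

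The genes whose level went most closely with Ms4a7 across the 181 barcodes were Ctss (Pearson correlation 0.39, and 0.26 after thinning), the complement gene C1qb (0.35 and 0.41), Rgs1 (0.32), Apoe (0.32) and B2m (0.31), out of 1965 genes found in at least 20% of barcodes. For Spp1 they were the protease Ctsd (0.29, and 0.12 after thinning), Gpnmb (0.22), Atxn7l3b (0.22), Ddost (0.22) and Otud4 (0.22). The median over all genes was -0.02 for Ms4a7 and -0.01 for Spp1. Barcodes share a library and differ in depth, and the Spp1 values are weak at these counts.

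Outside metastasis 1 the gate held 3 barcodes, which differed from each other. The first of naive 2 had 8 Ms4a7 UMIs, 1 Fabp5, 32 Lyz2 and 78 Apoe of 3383 UMIs. The second had 7 Fabp5 UMIs and no other entry gene, with 1 Lyz2 and 50 Cst3 of 2718 UMIs. The barcode of the Cx3cr1-/- library had 6 Clec4e UMIs and 41 Lyz2 of 2825 UMIs. None of the 3 had a UMI of Spp1 or Il1rn. With 0 and 1 barcode in the Cx3cr1+/- and Cx3cr1-/- libraries, the genotypes could not be compared within the gate.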

How the data were processed

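The authors deposited raw UMI count tables, 1 per Drop-seq library with 1000 barcodes each. STAR, Seurat and the build mm10 are named in the submitters' processing notes without version or role, and how the 1000 barcodes were chosen is not given in the sources used here. Barcodes were gated on counts as described, with Python 3.11.15, numpy 2.4.6, pandas 2.3.3 and scipy 1.17.1. The members and gene lists were chosen with earlier results of these data known. Doublets were not removed, but an alternative leaves out the top 5% of Scrublet scores (scanpy 1.11.5). Levels are CPM, as sums over barcodes or means of the barcodes' own values. A gene was compared with at least 50 UMIs over both sets, and 2-fold or more was the limit for a count. Ratios of sums carry 95% intervals (exact binomial, for counting error). The scripts were tested on simulated data. Named genes are the gate's genes, the 15 most abundant, the 15 largest ratios over microglia and the 10 lowest, the 10 each way against MHC class II high barcodes, the most abundant and the 2-fold members of each list, and the 5 best correlates of Spp1 and Ms4a7. Others named were chosen after their values were seen. Gene spans are from the mm10 annotation. A few genes that this rule names are not reported here.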

Additional observations from a re-analysis of the deposited data

How the results depend on the processing

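The number of gated barcodes in metastasis 1 (181, 18.3%) was 90 (9.09%) with at least 5 entry UMIs, 110 (11.1%) without Spp1 and Fabp5 as entry genes, 116 (11.7%) with 0 UMIs of the microglia genes, and 101 (10.2%) after thinning to 800 UMIs. It was 24.9% with up to 3 microglia UMIs and, in an alternative chosen after seeing the data, 21.8% without the limit on Mrc1, Pf4 and Cbr2. Leaving out 1 library at a time, metastasis minus naive ran from -0.552 points without metastasis 1 to 17.73 without metastasis 2. With the replicate block it was 8.59 points (exact permutation p = 1, smallest possible 0.5). The labels tie no animals across groups, but the replicate number also marks the sequencing instrument, so this pairing is by instrument.

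Genes 2-fold or more higher than in microglia (60) numbered 138 from mean levels, 22 after thinning, 265 with a minimum of 20 UMIs, 1713 with no minimum and 324 against stricter comparison cells. Those lower (142) numbered 46 after thinning, 371 with the minimum of 20, 2234 with none and 80 without the barcodes of 10000 UMIs or more. Against MHC class II high barcodes, the higher count (268) was 59 with at least 5 entry UMIs, 129 with 0 microglia UMIs, 21 after thinning, 881 and 1361 with a minimum of 20 and none, and 87 without the deepest barcodes. The lower count (81) was 24 with at least 5 entry UMIs, 45 from mean levels, 10 after thinning, 237 and 4303 with a minimum of 20 and none, 123 centred on the median gene and 29 without the deepest. Most of these alternatives also change how many genes are tested, against microglia 3978 as reported and 2949 with stricter comparison cells, and against MHC class II high barcodes 2693 and 1572 with at least 5 entry UMIs, 1818 with 0 microglia UMIs and 2010 without the deepest. Otherwise the cause was not tested.

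Against microglia, Igfbp7 turned to -1.34 with 0 microglia UMIs and -0.57 without the deepest barcodes (chosen after seeing the data), Cep55 to -0.028 with at least 5 entry UMIs and -0.77 after thinning, and Stra13 to -0.19 after thinning. Against MHC class II high barcodes, Krt8 turned to -0.12 after thinning, and Igfbp7 to -1.35 with 0 microglia UMIs, -1.44 after thinning and -0.58 without the deepest. Of 622 alternative values of list medians, 586 moved by less than the typical counting error of the list's genes and 36 by more. The medians of the monocyte, resident microglia, Ms4a, lipid handling, type I interferon and transcription factor lists against microglia kept their sign in every alternative. Others changed sign. The median of the 12 macrophage genes (-0.23) turned to 0.17 without the deepest barcodes and 0.086 with at least 5 entry UMIs. That of the carcinoma list (0.38) turned to -0.33 and -0.40 in the same order. With 1 library holding nearly all gated barcodes, no alternative gives an error between animals, and shares near 0 in the other libraries are limited by 81 to 420 quality barcodes.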
